A study of Mus musculus with 6 samples.

Results

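The genes of the spliceosome and its splicing factors were followed in single mouse morulae. They were taken as the genes of the expression table whose symbols begin with Snrp (followed by one of the letters a to g, or n), Snrnp, Sf3a, Sf3b, Prpf, Lsm, Srsf, U2af or Hnrnp, without the mark -ps of a pseudogene. This gave 87 of the 12125 genes of the table, in 8 subfamilies of 12 Snrp, 13 Lsm, 7 Snrnp, 3 U2af, 9 Sf3, 13 Prpf, 10 Srsf and 20 Hnrnp genes. Each of the 6 libraries was made from polyadenylated RNA of a single embryo at embryonic day 2.5, in an outbred background, from females that had not been superovulated. The 3 Rbpj-/- embryos, which carried a null allele of Rbpj on both chromosomes, were embryos 6 and 7 of litter 808 and embryo 4 of litter 810. The 3 controls were embryo 1 (Rbpj+/-) and embryos 3 and 4 (both Rbpj+/+), all of litter 808. Values of single embryos are given in this order within each genotype. Litter 810 is represented by a single embryo, so that its litter and its genotype cannot be told apart, and the comparison was therefore made over all 6 embryos and between the 2 Rbpj-/- and 3 control embryos of litter 808.

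Splicing removes introns from pre-mRNA in the spliceosome, which is built on each intron from small nuclear ribonucleoproteins (snRNPs), each a small nuclear RNA in a coat of proteins. Rings of Sm proteins (Snrp genes) and LSm proteins (Lsm genes) bind the snRNAs, U2AF and the SF3a and SF3b complexes recognise the end of the intron and its branch site, and PRPF proteins with the Snrnp200 helicase form and activate the catalytic core. SR proteins (Srsf genes) and hnRNPs bind the pre-mRNA itself and influence which sites are used. RBPJ is the DNA-binding protein through which the Notch pathway acts on its target genes, and the morula is the stage before the first embryonic lineages separate.

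Promoters of 4 members are shown because they stand for the opposite directions described here, Prpf8 and Sf3b3 for members lower in the Rbpj-/- embryos of litter 808 and Snrpf and Snrpd3 for members higher in them, each direction with and without a match to the core letters of the RBPJ motif. The windows are from RefSeq on GRCm38.p6 and run from 250 bases before the start of the gene to 50 after it. They lie at chr11:75486527-75486826 on the plus strand (Prpf8), chr8:110846754-110847053 on the minus strand (Sf3b3), chr10:93589609-93589908 on the minus strand (Snrpf) and chr10:75517792-75518091 on the plus strand (Snrpd3). Capitals mark TGGGAA on either strand.
Prpf8: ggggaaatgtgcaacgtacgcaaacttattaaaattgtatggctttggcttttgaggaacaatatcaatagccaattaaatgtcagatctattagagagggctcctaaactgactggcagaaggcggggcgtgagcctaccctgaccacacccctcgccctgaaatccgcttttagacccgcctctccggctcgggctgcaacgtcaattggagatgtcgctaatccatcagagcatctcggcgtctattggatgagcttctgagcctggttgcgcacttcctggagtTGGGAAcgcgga
Sf3b3: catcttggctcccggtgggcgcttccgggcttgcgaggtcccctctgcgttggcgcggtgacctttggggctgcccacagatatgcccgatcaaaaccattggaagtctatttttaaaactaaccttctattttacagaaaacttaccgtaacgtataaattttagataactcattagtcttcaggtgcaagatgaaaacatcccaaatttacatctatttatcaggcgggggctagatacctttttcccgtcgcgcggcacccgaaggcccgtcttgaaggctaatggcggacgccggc
Snrpf: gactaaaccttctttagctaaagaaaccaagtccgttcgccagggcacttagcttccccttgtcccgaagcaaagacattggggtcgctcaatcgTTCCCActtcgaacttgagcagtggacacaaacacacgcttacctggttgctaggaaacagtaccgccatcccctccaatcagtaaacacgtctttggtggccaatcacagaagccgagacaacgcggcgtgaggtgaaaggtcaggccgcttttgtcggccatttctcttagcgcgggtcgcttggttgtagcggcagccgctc
Snrpd3: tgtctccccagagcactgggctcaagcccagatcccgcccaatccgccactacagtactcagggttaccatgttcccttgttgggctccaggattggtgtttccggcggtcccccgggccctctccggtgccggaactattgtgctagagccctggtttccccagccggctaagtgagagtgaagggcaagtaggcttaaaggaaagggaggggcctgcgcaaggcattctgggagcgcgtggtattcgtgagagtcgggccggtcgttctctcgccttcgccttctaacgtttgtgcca
The match in Prpf8 began 38 bases after the start, and that in Snrpf 155 bases before it. A window was found for 74 of the 87 members, and 18 of these 74 genes (24.3%) held TGGGAA on either strand, against 28.3% of the 27025 genes in the table of windows. Among the members called between littermates, a match was found in 6 of 11 lower members with a window, namely Prpf4, Prpf8, Prpf19, Prpf40b, Sf3b1 and Srsf1, and in 4 of 16 higher ones, Lsm2, Lsm6, Snrpf and Srsf7. No test was made of these counts, and a match to these letters is a description that says nothing of binding.

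The expression table held 2962425, 4330126 and 10064016 reads for the mutants, against 12690030, 14355242 and 14585313 for the controls, so that both mutants of litter 808 were the shallowest libraries. Rbpj had a value of 10.5, 24.3 and 1.32 in Rbpj-/- embryos, against 37.0, 111 and 96.9 in controls, all lower in the mutants. The authors assigned genotypes from the reads of Rbpj and of the Neo cassette, so this is no independent check. Of 8 markers of the preimplantation embryo 7 were in the table, summing to 2039 to 3417 per embryo, and of 7 cumulus cell markers 0 were. The 5 blood genes in the table summed to 210, 41.5 and 7305 in Rbpj-/- embryos, against 1110, 5.39 and 5447 in controls, and 4 oviduct genes to 126, 18.7 and 135, against 111, 31.5 and 160, with no separation of the genotypes in either list. The members had a median of 447, 605 and 1269 reads in Rbpj-/- embryos, against 1693, 2070 and 1863 in controls. Values are CPM (reads of a gene scaled to library size) after TMM normalisation, and fold changes are Rbpj-/- over control on the log2(value + 1) scale, which understates the change of low genes.

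Between littermates, all 7 genes of the Sm ring and 6 of the 7 genes of the U6 LSm ring were higher in Rbpj-/- embryos. Of these, 1 and 2 passed once a trend with transcript length was removed. The genes for U2AF2, SF3B3, PRPF8 and SNRNP200 were lower, but their complexes also held genes with positive fold changes. Of the 6 SF3b genes 2 were called lower and 2 higher, and without the trend with transcript length 1 lower and 1 higher. Of 9 members listed with the U5 and U4/U6.U5 snRNPs 3 were called lower and 1 higher, with a median of -0.30. The 1 higher was Prpf38a, which is needed for activation of the assembled complex, and no other of the 9 was called higher. Without the trend with transcript length 2 were lower and 0 higher. In RNA of a whole embryo, fewer cells that express a gene and less RNA of it per cell cannot be told apart. By limma with Benjamini-Hochberg adjustment over 12099 genes, 12 of the 87 members (13.8%) were called lower, against 11.3% of all genes, and 20 (23%) higher, against 5.85% of all genes. The lower share was thus close to that of all genes, and the higher share was above it. The fold changes ranged from -2.71 to 1.51 on the log2 scale, with a median of 0.26 over the members and of -0.16 over all genes tested. Quantile normalisation moved the median of all genes to 0.10, with 11 members lower and 18 higher, against 7.88% and 5.5% of all genes. DESeq2 called 15 members lower and 30 higher, against 14.2% and 10.5% of all genes, and edgeR 10 and 15, against 7.88% and 4.75%. A limma fit without a variance trend called 2 lower, Sf3b3 and U2af2, and 0 higher, against 2.07% and 0.141% of all genes. Before adjustment that fit had 15 members lower and 23 higher, against 2308 and 1199 of all 12099 genes. Besides the members that limma called, DESeq2 called Hnrnpd, Hnrnpul1 and Sf3a2 lower. It also called Snrpb2, Lsm3, Lsm12, Snrnp27, Snrnp40, U2af1l4, Sf3a3, Srsf3, Hnrnpa1 and Hnrnpdl higher. In what follows, passing refers to limma unless another tool is named. Leaving out any of 4 embryos lowered the counts of members and those of the whole table. They were 8 lower and 3 higher without control embryo 1 (4.91% and 1.38% of all genes), 6 and 1 without control embryo 3 (3.77% and 0.68%), 8 and 1 without control embryo 4 (4.85% and 1.18%), and 11 and 6 without Rbpj-/- embryo 6 (8.34% and 2.33%), whereas without Rbpj-/- embryo 7 they were 15 and 20 (14.3% and 6.99%). The calls of 7 members held whichever of the 5 embryos of litter 808 was left out, those of U2af2, Sf3b3, Prpf8, Snrnp200, Sf3a1 and Prpf19, all lower, and of Snrpd3, higher.

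Over all 6 embryos limma called 0 members lower and 0 higher, as it did for all genes (0% in each direction). Before adjustment, 12 members had a p under 0.05 and were lower, against 11.4% of all genes, and 7 were higher, against 5.03%. The smallest adjusted p of a member was 0.174. The edgeR quasi-likelihood test also called 0 members. Before adjustment it had 11 lower and 10 higher, against 899 and 639 of all 12099 genes. DESeq2 called Hnrnpu lower and Snrpd3 higher, against 1.91% of all genes lower and 1.07% higher. Without the Rbpj-/- embryo of litter 810, 13 members were called lower and 21 higher, against 12.3% and 6.4% of all genes. With array weights, which give less weight to libraries that deviate, the counts were 13 and 7, against 9.62% and 3.31%.

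**Figure D1:**
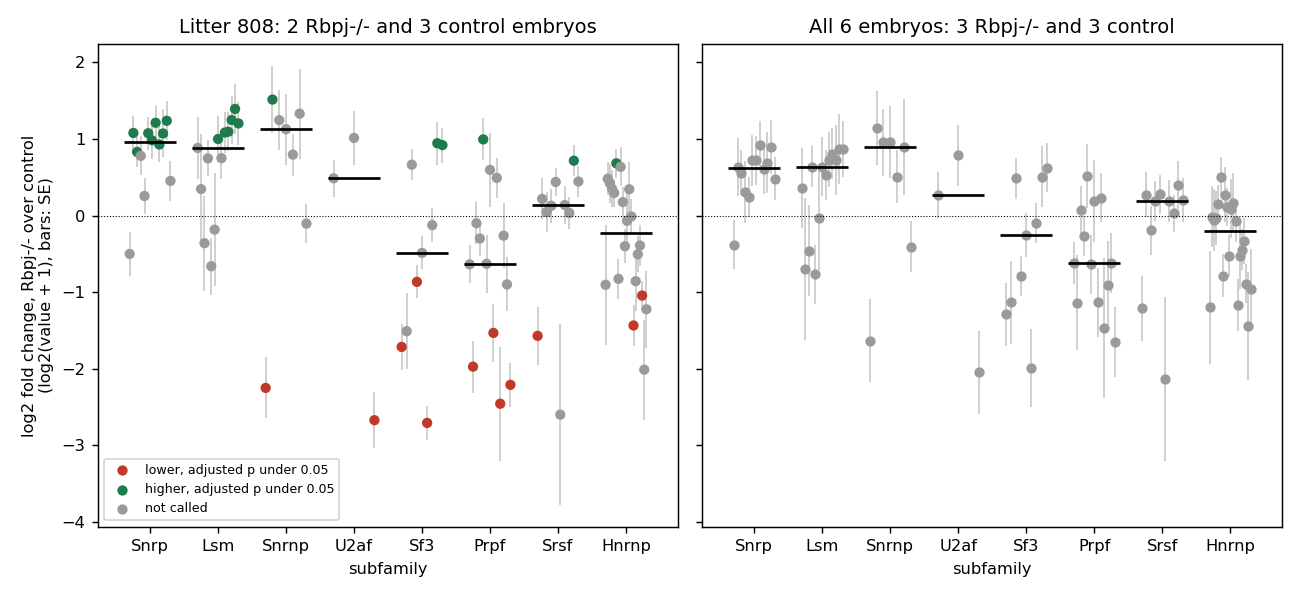
Log2 fold change of each member, Rbpj-/- over control, by subfamily, between the littermates of litter 808 (left) and over all 6 embryos (right). Points are genes, grey bars their SE and black lines the subfamily medians. Between littermates the Snrp and Lsm medians are 0.96 and 0.88 and those of Sf3 and Prpf -0.49 and -0.63.

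The 7 genes of the Sm ring moved together between littermates. All 7 were higher in Rbpj-/- embryos, with log2 fold changes of 0.83 to 1.24 and adjusted p under 0.05 (limma). Of all genes, 5.85% were called higher. Among genes with a longest annotated transcript of up to 1685 bases, it was 16.3%. Those genes included Snrpd1, Snrpd2, Snrpe, Snrpf and Snrpg. Without the trend with transcript length, Snrpd3 alone of the 7 passed, and Snrpe and Snrpd1, for example, were at -0.01 and 0.23, against 0.93 and 1.07 with it. Snrpd3, which encodes SmD3, had values of 415, 493 and 249 in Rbpj-/- embryos, against 221, 189 and 176 in controls. All 3 mutants lay above all 3 controls, the one of litter 810 by the smallest margin. Its log2 fold change was 1.21 ± 0.22 (SE) with an adjusted p of 0.0075 between littermates (limma), and 0.92 ± 0.31 with an adjusted p of 0.202 over all 6 embryos. Snrpg, for SmG, had 364, 245 and 146 in Rbpj-/- embryos, against 138, 128 and 114 in controls, again without overlap. Between littermates it was 1.24 ± 0.25 higher (adjusted p = 0.0128, limma). Snrpd2 had 310, 212 and 148 in Rbpj-/- embryos, against 134, 131 and 123 in controls, and was the third Sm gene without overlap of the genotypes.

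Snrpd1, for SmD1, had 292, 284 and 138 in Rbpj-/- embryos, against 142, 135 and 131 in controls. The mutant of litter 810 lay among the controls, and the log2 fold change between littermates was 1.07 ± 0.22 (adjusted p = 0.0124, limma). Snrpb, for SmB, had 771, 835 and 458 in Rbpj-/- embryos, against 492, 400 and 465 in controls, with the same arrangement of embryos and a log2 fold change of 0.83 ± 0.19 (adjusted p = 0.0202). Snrpf, for SmF, had 177, 104 and 60.9 in Rbpj-/- embryos, against 69.2, 67.4 and 56.3 in controls, and was 1.07 ± 0.31 higher between littermates (adjusted p = 0.044). Summed over the ring, the values were 2858, 2542 and 1427 in Rbpj-/- embryos, against 1432, 1292 and 1285 in controls. Both mutants of litter 808 exceeded every control, whereas that of litter 810 lay within the control range.

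The remaining Snrp genes encode proteins of single snRNPs. Snrpa1, for the A' protein of the U2 snRNP, was 1.079 ± 0.226 higher between littermates (adjusted p = 0.014, limma), and its partner Snrpb2 did not pass (adjusted p = 0.0637). Snrpa and Snrpc, for the A and C proteins of the U1 snRNP, did not pass either, with log2 fold changes of -0.50 and 0.26. Snrpn, an imprinted relative of Snrpb, had a log2 fold change of 0.45 and did not pass. In all, 8 of the 12 Snrp genes were higher, against 5.85% of all genes, and 0 lower, against 11.3%, with a median of 0.96. Without the trend with transcript length 1 of the 12 was higher and the median was 0.39. Before adjustment or by edgeR or DESeq2 also 0 Snrp genes were lower. Many Sm genes have processed pseudogenes, and their values depend on how reads were divided between near-identical copies.

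The LSm ring of U6 snRNA, made of LSm2 to LSm8, showed the same direction. Of its 7 genes, 6 were higher in Rbpj-/- embryos between littermates, and Lsm3 did not pass (log2 fold change 0.75, adjusted p = 0.092, limma). Over all genes, 5.85% were called higher. The share was 16.3% among genes with a longest annotated transcript of up to 1685 bases, which included Lsm2, Lsm4, Lsm5 and Lsm7. Without the trend with transcript length, Lsm6 and Lsm8 passed. Lsm7 had 236, 130 and 58.5 in Rbpj-/- embryos, against 77.3, 62.4 and 59.9 in controls. Here the mutant of litter 810 was the lowest of all 6 embryos, and the log2 fold change between littermates was 1.39 ± 0.32 (adjusted p = 0.0195). Lsm5 had 178, 186 and 99.7 in Rbpj-/- embryos, against 85.3, 96.1 and 73.9 in controls, without overlap of the genotypes. Its log2 fold change was 1.09 ± 0.25 between littermates (adjusted p = 0.0193, limma) and 0.81 ± 0.33 over all 6 embryos (adjusted p = 0.271). Lsm8, the subunit that distinguishes the nuclear ring from the cytoplasmic one, had 170, 121 and 70.9 in Rbpj-/- embryos, against 58.2, 68.2 and 59.4 in controls, also without overlap. It was 1.203 ± 0.284 higher between littermates (adjusted p = 0.021). Over the whole ring the values summed to 1420, 984 and 559 in Rbpj-/- embryos, against 575, 562 and 520 in controls, with the litter 810 mutant inside the control range.

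The other Lsm genes serve outside the U6 ring, and their differences did not pass the threshold of limma. Lsm1, which replaces Lsm8 in the cytoplasmic ring of mRNA decay, had a log2 fold change of 0.88 (adjusted p = 0.161, limma). Lsm12 had 473, 314 and 309 in Rbpj-/- embryos, against 218, 243 and 227 in controls. The genotypes did not overlap, and the log2 fold change of 0.75 ± 0.23 between littermates narrowly missed the threshold (adjusted p = 0.056, limma). DESeq2 called Lsm12 higher (adjusted p = 0.00496). Lsm10, a subunit of the U7 snRNP that processes histone mRNA ends, was low, with 5.81, 10.3 and 0 in Rbpj-/- embryos, against 8.38, 5.33 and 4.56 in controls. No read was counted in the mutant of litter 810, where 3 reads would give a value of 0.282. Lsm11 and the P-body genes Lsm14a and Lsm14b had log2 fold changes between -0.66 and -0.18.

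The Snrnp genes split. Snrnp200, the helicase that unwinds U4 from U6 snRNA, had 23.96, 68.3 and 148 in Rbpj-/- embryos, against 197, 227 and 170 in controls. All mutants lay below all controls, and the log2 fold change was -2.25 ± 0.40 between littermates (adjusted p = 0.00718, limma) and -1.63 ± 0.54 over all 6 embryos (adjusted p = 0.202). Snrnp25, a protein of the U11/U12 particle that recognises the rare minor introns, had 134, 76.2 and 45.9 in Rbpj-/- embryos, against 52.5, 37.5 and 21.2 in controls. It was 1.51 ± 0.44 higher between littermates (adjusted p = 0.0426), and the mutant of litter 810 lay within the control range. Without the trend with transcript length it was at 0.65 and did not pass (adjusted p = 0.358, limma).

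The other members of the U11/U12 particle, Snrnp35 and Snrnp48, had log2 fold changes of 1.13 and 1.33 between littermates without passing. The particle also holds proteins whose genes lie outside the subfamilies, so that the members do not stand for all of it. One of those genes, Pdcd7, had all mutants below all controls. Snrnp27, of the tri-snRNP that brings U4, U5 and U6 to the intron, had 68.2, 58.3 and 34.1 in Rbpj-/- embryos, against 31.1, 29.7 and 19.0 in controls. The genotypes did not overlap, and the adjusted p between littermates was 0.0541 by limma and 0.009995 by DESeq2. Snrnp70, which binds the U1 snRNA, had 133, 177 and 81.5 in Rbpj-/- embryos, against 167, 185 and 144 in controls, and showed no difference beyond its spread (log2 fold change -0.10 ± 0.25).

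The U2AF genes, whose products recognise the end of the intron, did not share a direction, and of the 3 only the large subunit passed by limma, while DESeq2 also called U2af1l4 higher (adjusted p = 0.0246). U2af2, the large subunit that binds the polypyrimidine tract, had 10.5, 11.3 and 42.8 in Rbpj-/- embryos, against 83.5, 81.2 and 61.7 in controls, from 29, 46 and 455 reads, against 1086, 1205 and 921. All mutants lay below all controls, with the mutant of litter 810 between its mutant counterparts and the controls. The log2 fold change was -2.67 ± 0.37 between littermates (adjusted p = 0.00287, limma), a fold of 6.36, and -2.04 ± 0.54 over all 6 embryos (adjusted p = 0.174). U2af1, the small subunit and partner of U2af2, had 239, 183 and 132 in Rbpj-/- embryos, against 167, 145 and 136 in controls. It did not pass between littermates (0.49 ± 0.24, adjusted p = 0.197). U2af1l4, a relative of the small subunit, had 81.7, 62.0 and 43.9 in Rbpj-/- embryos, against 42.3, 36.5 and 27.1 in controls, without overlap and without passing (adjusted p = 0.0803).

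**Figure D2:**
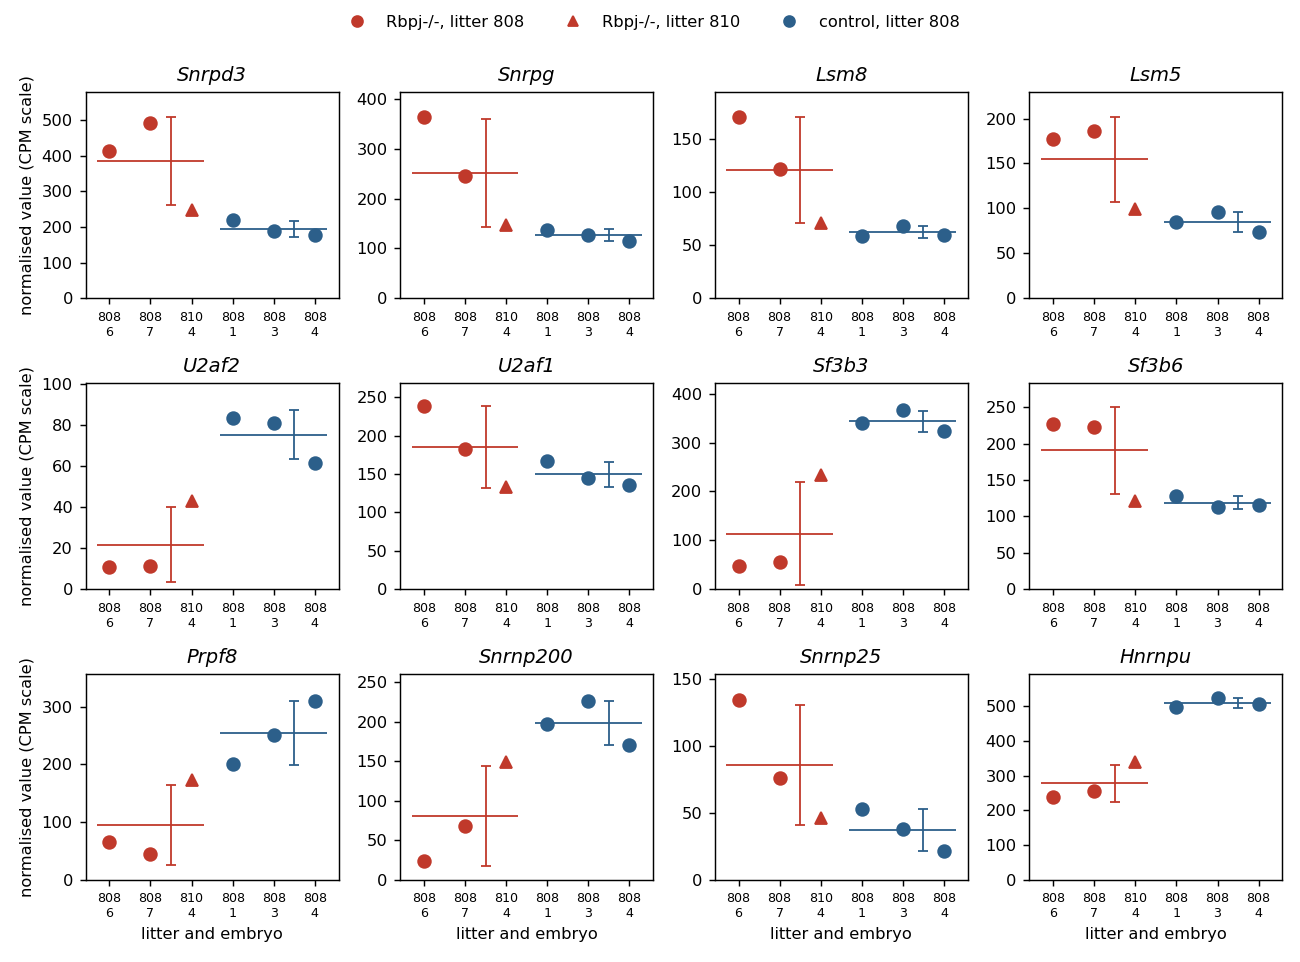
Normalised values of 12 members in each embryo, with Rbpj-/- embryos in red (circles, litter 808, triangle, litter 810) and controls in blue, horizontal lines for group means and bars for the SD (n = 3 each). Both litter 808 mutants lie outside the control range in each panel, while the litter 810 mutant lies nearer to the controls, as for Sf3b3, at 234 against 324 to 366 in controls.

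Within the SF3 complexes, which hold the U2 snRNP on the branch site, Sf3a1, Sf3b1 and Sf3b3 were lower between littermates and the small SF3b subunits Sf3b5 and Sf3b6 higher. Without the trend with transcript length, Sf3a1, Sf3b3 and Sf3b5 still passed. Sf3b1, at -0.285, and Sf3b6, at 0.44, did not (adjusted p = 0.429 and 0.239, limma). Sf3b3, a scaffold subunit of SF3b, had 47.9, 55.8 and 234 in Rbpj-/- embryos, against 340, 366 and 324 in controls, from 132, 227 and 2491 reads, against 4425, 5431 and 4831. The genotypes did not overlap. With -2.71 ± 0.22 between littermates, a fold of 6.52, it had the smallest adjusted p among the members (0.000506, limma), and over all 6 embryos it was -1.99 ± 0.51 (adjusted p = 0.174). Its mean was 113 ± 105 in Rbpj-/- embryos and 343 ± 21.4 in controls (SD, n = 3 each), with the litter 810 embryo far above both other mutants.

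Sf3a1, of the SF3a complex, had 50.8, 47.2 and 119.4 in Rbpj-/- embryos, against 176, 206 and 119.9 in controls. The mutant of litter 810 differed from the lowest control by less than 1 unit, and the log2 fold change between littermates was -1.71 ± 0.30 (adjusted p = 0.00659, limma). Sf3b1, the subunit that clamps the branch site, had 269, 356 and 364 in Rbpj-/- embryos, against 496, 572 and 632 in controls. All 3 mutants were lower, by -0.86 ± 0.22 between littermates (adjusted p = 0.026, limma) and -0.79 ± 0.26 over all 6 embryos (adjusted p = 0.202). The small subunits Sf3b5 and Sf3b6 were 0.94 ± 0.28 and 0.92 ± 0.23 higher between littermates (adjusted p = 0.0473 and 0.0248). Sf3b6 had 228, 223 and 122 in Rbpj-/- embryos, against 128, 112 and 116 in controls, with the litter 810 mutant inside the control range. Sf3a2, Sf3a3, Sf3b2 and Sf3b4 did not pass by limma, at -1.51, 0.66, -0.49 and -0.12, although DESeq2 called Sf3a2 lower and Sf3a3 higher (adjusted p = 0.0464 and 0.00188).

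The Prpf genes were mostly on the lower side, with a median of -0.63, 4 of 13 called lower, against 11.3% of all genes, and 1 higher, against 5.85%, between littermates. Their median length was 4065 bases, and all genes of 3637 to 4989 bases also had a median of -0.63, with 18.7% called lower. Prpf8, which cradles the catalytic RNA core, had 65.0, 43.8 and 173 in Rbpj-/- embryos, against 201, 251 and 311 in controls, without overlap. Its log2 fold change was -2.21 ± 0.29 between littermates (adjusted p = 0.00222, limma) and -1.65 ± 0.46 over all 6 embryos (adjusted p = 0.18). Prpf4, of the U4/U6 snRNP, had 26.9, 16.5 and 49.5 in Rbpj-/- embryos, against 62.1, 52.6 and 75.6 in controls, and fell by 1.53 ± 0.38 between littermates (adjusted p = 0.0239).

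Prpf19, the scaffold and ubiquitin ligase of the complex that activates the spliceosome, differed between the litters of the mutants. It had 22.1, 26.8 and 142 in Rbpj-/- embryos, against 130, 103 and 71.0 in controls, so that both litter 808 mutants were the lowest and the litter 810 mutant the highest of the 6. The change between littermates was -1.97 ± 0.34 (adjusted p = 0.00658, limma). Prpf40b, which helps to bridge the ends of the intron, showed the same arrangement at a low level, with 0.726, 0 and 9.32 in Rbpj-/- embryos, against 3.77, 7.55 and 8.17 in controls. Its call between littermates (-2.46 ± 0.74, adjusted p = 0.0496) rested on 2 and 0 reads in the mutants, and 3 reads in the embryo with 0 would give a value of 0.738.

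Prpf38a, needed for activation of the assembled complex, was the only Prpf gene called higher between littermates (0.99 ± 0.27, adjusted p = 0.0353, limma), with 181, 132 and 57.2 in Rbpj-/- embryos, against 84.2, 72.3 and 75.8 in controls. Prpf18, which acts in the later step of splicing, had 113, 112 and 118 in Rbpj-/- embryos, against 166, 153 and 211 in controls. The genotypes did not overlap and the mutants were closely grouped, but the adjusted p was 0.108 between littermates and 0.303 over all 6 embryos.

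Few Srsf genes differed. Srsf1, an SR protein that promotes recognition of exons, had 54.4, 149 and 191 in Rbpj-/- embryos, against 231, 302 and 280 in controls. All mutants were lower, by -1.57 ± 0.38 between littermates (adjusted p = 0.0223, limma) and -1.21 ± 0.43 over all 6 embryos (adjusted p = 0.22). Srsf7 was higher between littermates by 0.72 ± 0.21 (adjusted p = 0.0408), with 653, 683 and 344 in Rbpj-/- embryos, against 471, 350 and 406 in controls, and its litter 810 mutant was the lowest embryo. Srsf3 had 1012, 1046 and 739 in Rbpj-/- embryos, against 834, 715 and 731 in controls, and did not pass (adjusted p = 0.129). Srsf4 had 0, 33.4 and 14.3 in Rbpj-/- embryos, against 37.0, 30.5 and 36.5 in controls. One mutant had no read, where 3 reads would give a value of 1.09, while its mutant littermate lay within the control range. The 6 remaining genes had log2 fold changes of 0.03 to 0.45 between littermates, with a subfamily median of 0.13.

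The Hnrnp genes, whose products coat nascent transcripts, had a median of -0.23 between littermates, close to the -0.16 of all genes, with 2 of 20 (10%) called lower and 1 (5%) higher, near the 11.3% and 5.85% of all genes. Hnrnpu, a nuclear matrix protein that binds RNA and chromatin, had 238, 256 and 339 in Rbpj-/- embryos, against 498, 525 and 505 in controls. The groups did not overlap and the controls were within a narrow range. The log2 fold change was -1.04 ± 0.19 between littermates (adjusted p = 0.00843, limma) and -0.89 ± 0.26 over all 6 embryos (adjusted p = 0.186). Without the trend with the longest transcript length Hnrnpu was at -0.44 between littermates and did not pass (adjusted p = 0.172, limma). With the median transcript length instead it was at -1.24 and passed (adjusted p = 0.0046, limma). Hnrnpl, which binds CA-rich RNA, had 58.1, 43.0 and 87.6 in Rbpj-/- embryos, against 130, 144 and 137 in controls, and fell by 1.43 ± 0.27 between littermates (adjusted p = 0.00952). All mutants were again below all controls.

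Hnrnpd, which binds AU-rich mRNA and affects its decay, had 111, 181 and 154 in Rbpj-/- embryos, against 256, 248 and 253 in controls, without overlap. It narrowly missed the threshold between littermates (-0.83 ± 0.26, adjusted p = 0.0541, limma), while DESeq2 called it lower (adjusted p = 0.0346). Hnrnpc, which binds uridine tracts, was called higher between littermates (0.68 ± 0.19, adjusted p = 0.0373), with 1180, 1490 and 916 in Rbpj-/- embryos, against 838, 772 and 871 in controls. Hnrnpa2b1, which binds nuclear and exported RNA, had 2026, 2693.5 and 870.1 in Rbpj-/- embryos, against 2109, 1990 and 1266 in controls. Its values overlapped, and the mutant of litter 810 was the lowest of the 6 embryos.

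Partners that work together in one complex were set side by side as ratios within each embryo, a choice made after their values were seen. Since the values had chosen the pairs, the permutation p cannot serve as support for a difference. The ratio of U2af2 to U2af1 was 0.0440, 0.0618 and 0.323 in Rbpj-/- embryos, against 0.499, 0.560 and 0.454 in controls. All mutants lay below all controls, by -2.39 on the log2 scale (two-sided exact permutation test, p = 0.1, the smallest that 3 against 3 embryos can give). The ratio of Sf3b3 to Sf3b6 was 0.210, 0.250 and 1.93 in Rbpj-/- embryos, against 2.65, 3.26 and 2.79 in controls, with a difference of -2.63 and the same exact p. The ratio of Prpf8 to Snrnp40, which sit together in the U5 snRNP, was 0.463, 0.217 and 1.88 in Rbpj-/- embryos, against 1.79, 2.95 and 3.31 in controls. Here the mutant of litter 810 lay within the control range (exact permutation p = 0.2).

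**Figure D3:**
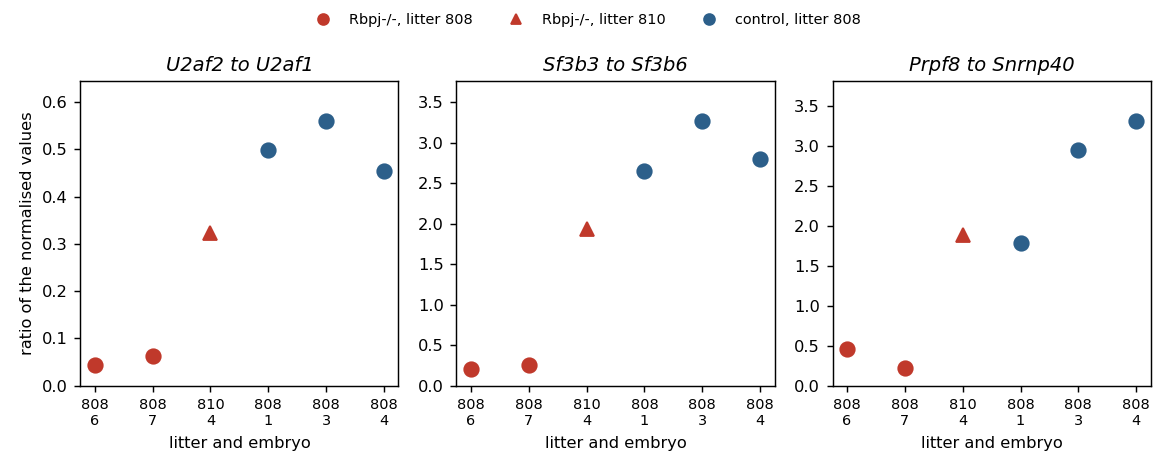
Ratio of the normalised values of 2 partner genes in each embryo, Rbpj-/- embryos in red (circles, litter 808, triangle, litter 810) and controls in blue. The ratios are not corrected for transcript length and are read between embryos only. The numerator of each ratio has the longer annotated transcript, and the trend with length differed between embryos. Over all genes, length correlated with the log2 difference from controls at -0.40, -0.38 and -0.15 in Rbpj-/- embryos (Spearman). For each control against the other controls it was -0.08, 0.10 and -0.01. The part of length in the ratios was not tested. Both litter 808 mutants lie far below the controls, at 0.0440 and 0.0618 for U2af2 to U2af1 against 0.454 to 0.560 in controls.

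Over all members, 20 of 87 (23%) had all 3 Rbpj-/- embryos below all 3 controls, against 12.8% of all genes tested, and 10 (11.5%) had them above, against 8.91%. The 20 included 4 Sf3, 5 Prpf and 7 Hnrnp genes, and the 10 included Snrpd2, Snrpd3, Snrpg, Lsm5, Lsm8 and Lsm12. The mutant of litter 810 differed in how far it followed its fellow mutants. Of the 12 members called lower between littermates, it was below all controls in 10 and above all of them in 2, Prpf19 and Prpf40b. Its median log2 difference from the control mean for these 12 was -0.51, against -1.995 and -1.80 in the mutants of litter 808, which had chosen them. Of the 20 called higher, it was above all controls in 6, within their range in 8 and below it in 6, with a median difference of 0.02. Over all 12099 genes tested, this mutant was below all controls in 3584, within their range in 4998 and above it in 3517. Over the 87 members it was below in 43, within in 26 and above in 18. The same controls had also taken part in choosing the 12 and the 20.

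Transcript length moved with the direction of the members. The 12 members called lower had longest annotated transcripts (GENCODE release M21) of 2412 to 7640 bases, and the 20 called higher of 669 to 3841 bases. Over the 87 members, the Spearman correlation of length with the log2 difference from the control mean was -0.59, -0.53 and -0.33 for the mutants. For each control set against the other controls it was -0.25, 0.12 and 0.12. These are descriptions across genes that share 1 library each, and the 11995 tested genes with an annotated length showed the same sign in the mutants, at -0.40, -0.38 and -0.15. Among the shortest 20% of genes, up to 1685 bases, all 16 members had fold changes above 0 and 10 were called higher, against 16.3% of the 2401 genes of that length. Among the longest 20%, from 4990 bases, 7 of 16 were called lower, against 22.6% of 2399 genes.

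**Figure D4:**
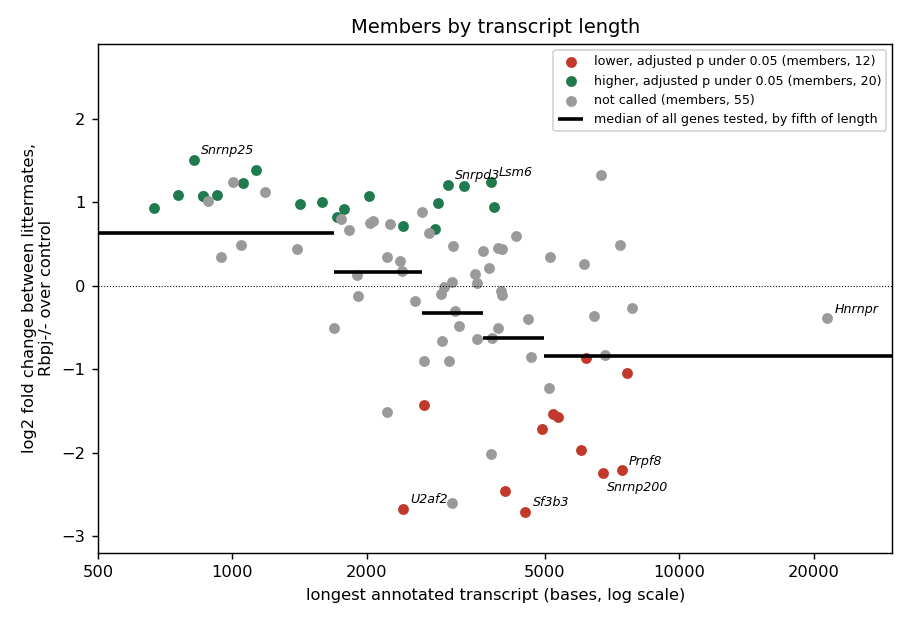
Log2 fold change between littermates, Rbpj-/- over control, of the 87 members against the length of the longest annotated transcript (log scale), coloured by call. Black lines give the median of all genes tested in 5 bins of length that hold about equal numbers of genes. The line steps down from 0.64 in the shortest bin to -0.84 in the longest, and U2af2 and Sf3b3 lie far below it.

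When a smooth trend with length was removed from each embryo, 7 members remained lower between littermates, against 6.7% of all genes, and 5 of the 20 remained higher. The lower ones were U2af2, Sf3b3, Prpf8, Snrnp200, Sf3a1, Prpf19 and Hnrnpl, and the higher ones Snrpd3, Lsm6, Lsm8, Sf3b5 and Hnrnpc. With 3 members that passed only then, the higher members came to 8, against 2.89% of all genes. U2af2 was at -2.86 and Sf3b3 at -2.27 (limma, adjusted p = 0.00314 and 0.00129). Of the Sm ring Snrpd3 alone passed, at 1.28 (adjusted p = 0.00686), and of the U6 ring Lsm6 and Lsm8. The median of the Snrp genes was then 0.39 and that of the Lsm genes 0.39, and the median of the U2af genes turned from 0.49 to -0.30 and that of the Hnrnp genes from -0.23 to 0.04. The longest annotated transcript need not be the one expressed in morulae. With the median transcript length of each gene instead, chosen after the data were seen, 13 members were lower and 11 higher, against 9.3% and 3.46% of all genes. The part of length, and of the lower depth of the litter 808 mutants, in the differences between genotypes was not tested.

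A further 105 genes of the spliceosome and its regulators, listed apart from the subfamilies, gave 18 lower (17.1%, against 11.3% of all genes) and 11 higher (10.5%, against 5.85%) between littermates, with a median of -0.02. Over all 6 embryos 0 passed in each direction (limma, 17 lower and 5 higher before adjustment, against 11.4% and 5.03% of all genes, 0 by edgeR, 3 lower and 2 higher by DESeq2, against 1.91% and 1.07%). Gemin4, of the SMN complex that loads Sm rings onto snRNAs, had 6.53, 7.87 and 94.5 in Rbpj-/- embryos, against 58.0, 69.2 and 67.9 in controls. The mutants of litter 808 were the lowest and that of litter 810 the highest embryo, with -3.01 ± 0.37 between littermates (adjusted p = 0.00212, limma). Sf1, which binds the branch site before the U2 snRNP, had 48.3, 75.5 and 142 in Rbpj-/- embryos, against 224, 238 and 216 in controls, all lower, by -1.88 ± 0.27 between littermates (adjusted p = 0.00313). Aqr, an intron-binding helicase, had 17.8, 13.8 and 103 in Rbpj-/- embryos, against 64.6, 91.3 and 78.5 in controls, and was called lower between littermates while the litter 810 mutant was the highest embryo.

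Among the higher genes of that list, Rbm8a, a core protein of the exon junction complex, had 742, 588 and 272 in Rbpj-/- embryos, against 244, 228 and 260 in controls, without overlap (1.43 ± 0.21 between littermates, adjusted p = 0.00341, limma). Nhp2l1, which binds U4 snRNA, had 1377, 1233 and 487 in Rbpj-/- embryos, against 590, 584 and 542 in controls, so that the mutant of litter 810 was the lowest embryo. Bud31, a component of the activated spliceosome, had 288, 250 and 86.1 in Rbpj-/- embryos, against 133, 85.5 and 90.1 in controls. It was 1.40 ± 0.27 higher between littermates (adjusted p = 0.0107), and the litter 810 mutant lay within the control range. Without the trend with transcript length Bud31 was at 0.58 and did not pass (adjusted p = 0.18, limma), whereas Gemin4, Sf1, Aqr, Rbm8a and Nhp2l1 did. Of the 105 genes 14 were then lower and 8 higher, against 6.7% and 2.89% of all genes.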

How the data were processed

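RNA of 6 single morulae was amplified (SMART-Seq Ultra Low Input) from polyadenylated molecules without strand, so that overlapping genes and near-identical copies share reads. The signal values of the deposited table are gene counts that the authors obtained with RSEM on the GRCm38 transcriptome and scaled by the TMM method of edgeR, on a CPM scale. The submitters' processing notes name CASAVA 1.8.2, cutadapt 1.3 and RSEM 1.2.3, and the study's methods another RSEM release. For the filter that left 12125 genes, the sources used here give nothing. All values of an embryo were multiples of one constant, the worth of a read (100% within 0.01 of a whole read), which gave the depths, with 3 reads worth 0.201 to 1.09, counting error only.

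The fit took the 12099 genes, all 87 members included, that exceeded a value of 1 in 3 or more embryos. On the log2(value + 1) scale limma 3.58.1 was used, under R 4.3.3 (variance trend, empirical Bayes, two-sided, Benjamini-Hochberg, threshold 0.05). The model held genotype only, since the study names no covariate. Adding litter leaves the litter 810 embryo without weight and gives the littermate comparison. Single embryos are the replicates. The study tested counts with edgeR. Here edgeR 4.0.16 (quasi-likelihood) and DESeq2 1.42.0 were run on the recovered reads as alternatives, beside array weights, quantile normalisation, scaling by the median of ratios, pseudocounts of 0.1 and 5, the whole table, genes with a mean of 10 or more, a fit without variance trend, subtraction of the loess curve (span 0.5) of value on transcript length, and the omission of each embryo in turn. The fits were tested on simulated data. Members and lists were chosen with earlier results of these data known. The named genes were, in each subfamily, the member with the highest mean value, the 3 with the smallest p over all 6 embryos and the 2 with the smallest p between littermates, and members without a read in an embryo. A result that this rule would name is not reported here. Of the wider list they were the 3 lower and 3 higher genes with the smallest p between littermates. Other genes, and the rings and complexes, were named after their values were seen.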

Additional observations from a re-analysis of the deposited data

How the results depend on the processing

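No paired analysis was possible because the embryo numbers name embryos within litters, and the genotypes share fewer than 2 of them. Over all 6 embryos, where 0 members were called in either direction, array weights called 13 lower and 7 higher and DESeq2 1 and 1. Leaving out 1 embryo gave 0 to 13 lower and 0 to 21 higher, the higher values only without the Rbpj-/- embryo of litter 810. Between littermates, against 12 lower and 20 higher, the fit without a variance trend called 2 lower (Sf3b3 and U2af2) and 0 higher. Before adjustment it had 15 lower and 23 higher, against 2308 and 1199 of all 12099 genes. DESeq2 called 15 and 30, against 14.2% and 10.5% of all genes, and edgeR 10 and 15, against 7.88% and 4.75%. Median of ratios scaling gave 11 and 24, against 1266 lower and 846 higher of all 12099 genes. Removing the length trend left 7 lower and 8 higher, and the median transcript length gave 11 higher. Leaving out 1 embryo gave 6 to 15 lower and 1 to 20 higher, with 8 and 3 without control embryo 1, 6 and 1 without control embryo 3, 8 and 1 without control embryo 4, and 11 and 6 without Rbpj-/- embryo 6. A comparison of 1 mutant with 3 controls assumes that the lone mutant varies as the controls do. The cause of these changes was not tested.

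The call of Sf3b3 and of U2af2 between littermates held under each of the 17 alternatives run for them. Of the 34 named members 4 changed sign between littermates. The log2 fold change of Hnrnpa2b1 was -0.0571 with quantile normalisation, that of Lsm10 -0.47 without the length trend and -0.0211 to 0.71 when 1 embryo was left out, that of Snrnp70 0.23 without the length trend and -0.31 to 0.10 when 1 embryo was left out, and that of U2af1 -0.30 without the length trend. Over all 6 embryos 3 changed sign. U2af1 was at -0.30 without the length trend, and Lsm10 at 0.0702 with array weights and -1.40 to 0.35 when 1 embryo was left out. Hnrnpa2b1 was at 0.0037 with median of ratios scaling, 0.27 with array weights, 0.0601 by edgeR, 0.13 by DESeq2, 0.11 without the length trend, and -0.39 to 0.42 when 1 embryo was left out. No value that changed sign passed the threshold. Depth limits Lsm10, Prpf40b and Srsf4, each without a read in 1 embryo.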
